A study of Mus musculus with 6 samples.

Results

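The 34 genes described here code for the fibrous scaffold around cells (collagens, laminins, small proteoglycans and the glycoproteins bound to them), for enzymes and inhibitors that remodel it, and for 2 genes often used to recognise fibroblasts. They were chosen by name from the deposited table, with the FPKM of all isoforms of a gene added up (FPKM is a level corrected for transcript length and for the number of mapped fragments of the library). The whole table holds 60744 isoforms. Of the 34 genes, 33 had values, and 31 reached the mean of 1 FPKM over the 6 libraries that was needed for a test, among 12289 genes tested in all. Fn1 and Fbln1 had values under that mean. The level of Timp1 is not analysed here, and Timp1 enters only the counts of promoter motifs.

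The libraries came from laser-microdissected neurons of the lumbar 3, 4 and 5 dorsal root ganglia, the clusters of sensory nerve cell bodies beside the spinal cord, of male C57Bl/6 mice labelled both as adult and as 4-6 weeks old. In the crush group the sciatic nerve had been crushed for 10 s, and in the sham group it had only been exposed for 10 s. Ganglia of the operated side were taken 7 days later, and each group has 3 libraries of poly-A RNA. The labels give no other agent or allele and do not say whether each library came from its own animal, so the tests measure the spread between these libraries, which may be technical.

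The extracellular matrix is secreted and assembled outside the cell. Fibrillar collagens form the cables of connective tissue, collagen VI forms fine beaded filaments beside cells, and collagen IV, laminins, nidogens and perlecan form the basement membrane, a thin sheet. In a ganglion a neuron and its satellite glia share a basement membrane, fibroblasts lie between these units, and Schwann cells and vessels carry basement membranes of their own. Neurons themselves are not known as a main source of fibrillar collagen.

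No gene of the group passed the test between crush and sham, although most of them were listed higher after crush. In limma, with Benjamini-Hochberg adjustment over all 12289 genes and a threshold of 0.05, 0 of 31 members passed, where 3.78% of all genes tested did (2.38% as higher after crush). Changes are differences of log2(FPKM + 1), a measure that is too small for genes of low level. They were above 0 in 27 of 31 members, or 87.1%, against 45.9% of all genes. The median was 0.27 in the members and -0.02 in all genes. In 15 members, or 48.4%, the 3 crush values lay above the 3 sham values, against 12.2% of all genes. The same number had an unadjusted p under 0.05 with a higher crush value, against 8.59% of all genes. In 1 member, Timp2, the 3 crush values lay below the sham values (14.1% of all genes) and the unadjusted p was under 0.05 (8.97% of all genes lower). The smallest adjusted p of the group was 0.0961, for Lum. These shares describe a group whose members were picked with earlier results of these libraries known, so no test was made on them.

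**Figure D1:**
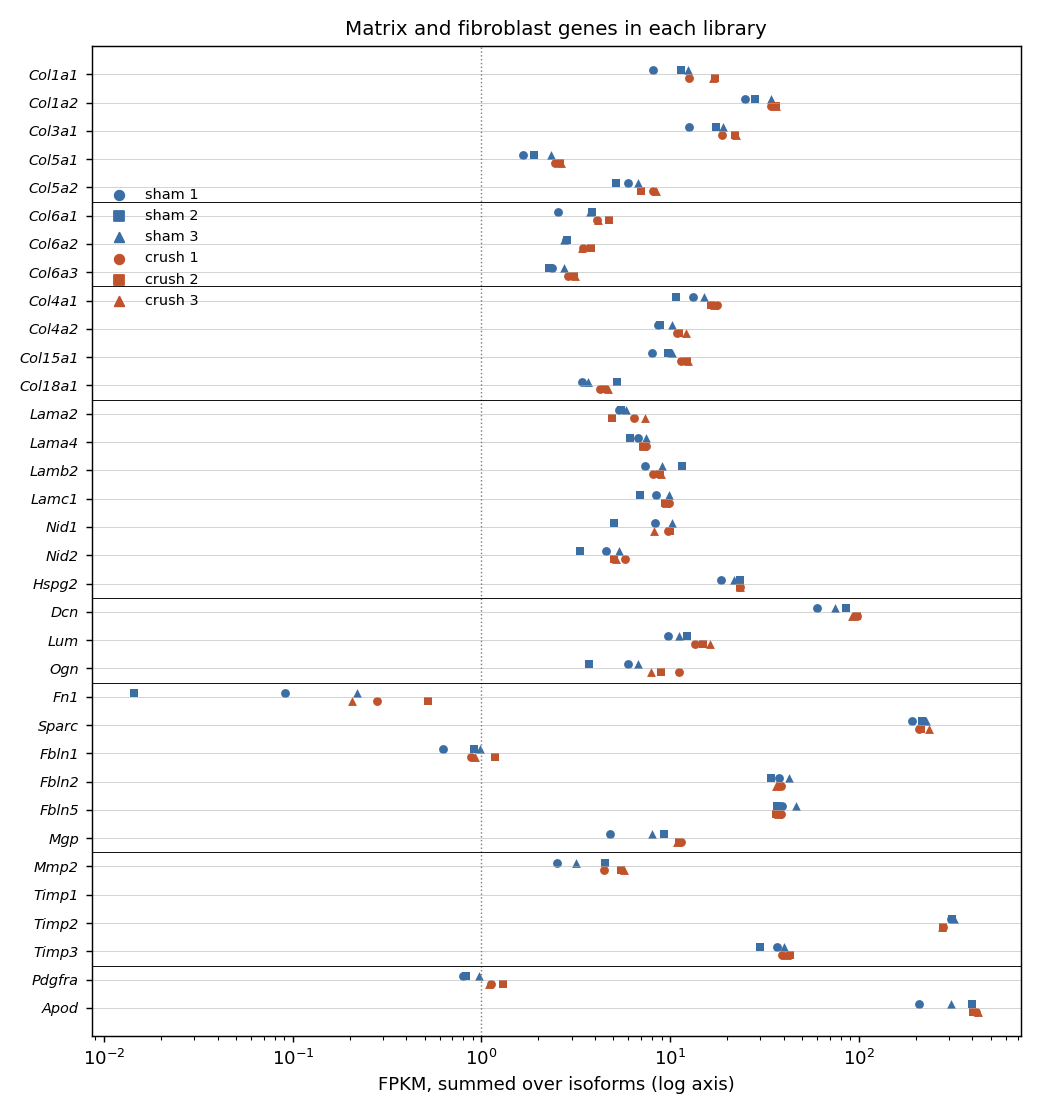
FPKM of each of the 34 genes in each library on a log axis, grouped by role in the order of the text, with sham libraries in blue and crush libraries in orange; the dotted line marks 1 FPKM, and Timp1 has no value. The genes span from Fn1, listed below 1 FPKM in all libraries, to Apod, between 208 and 429 FPKM.

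**Figure D2:**
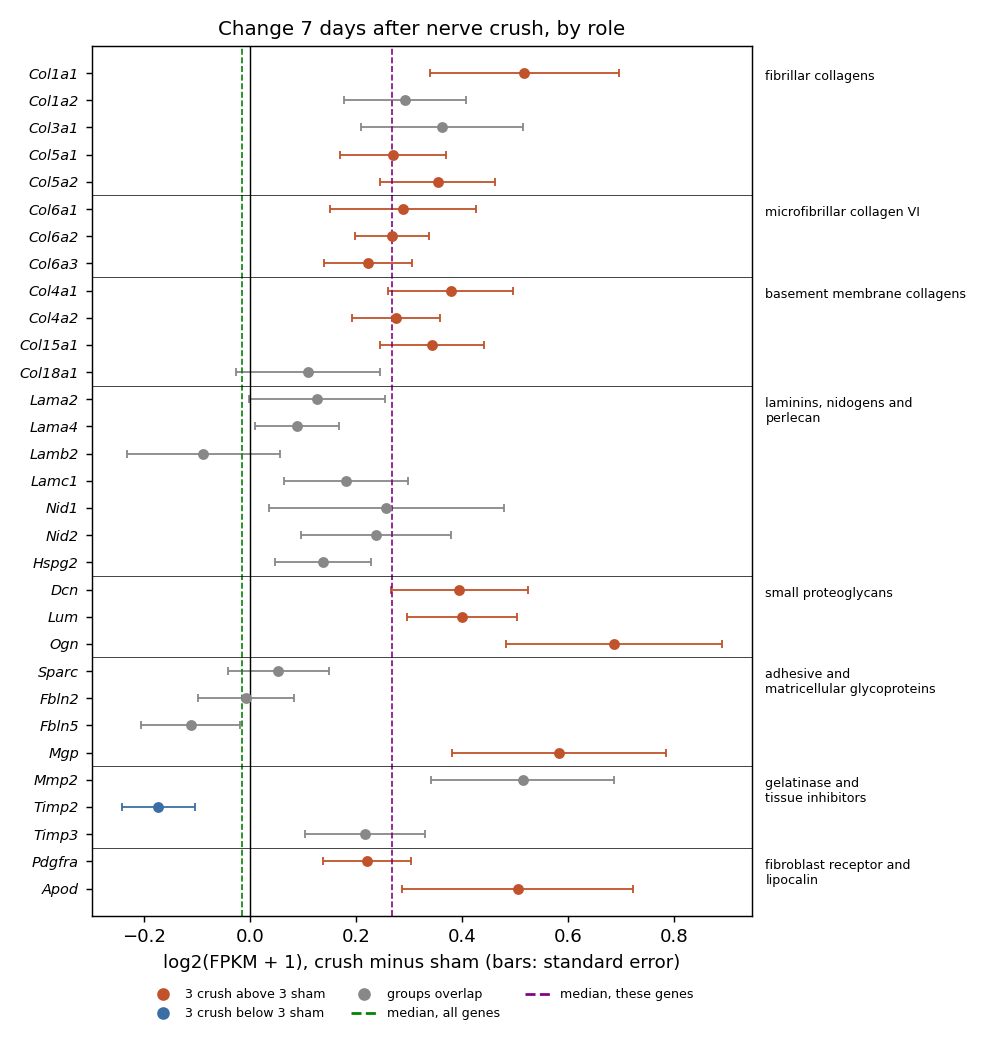
Difference in log2(FPKM + 1), crush minus sham, for the 31 genes tested, with the standard error from limma as bars and colours for whether the 3 crush values lie above, below or among the 3 sham values. The dashed lines are the medians of all genes (-0.02) and of these genes (0.27); Ogn is highest at 0.69 and Timp2 lowest at -0.17, and none passed the adjusted test.

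The 5 genes of fibrillar collagens were all listed higher after crush, and in 3 of them (Col1a1, Col5a1 and Col5a2) the groups did not overlap. Col1a1 codes for the chain that is present in 2 copies in each type I collagen molecule. It stood at 8.11, 11.4 and 12.4 FPKM in sham libraries 1, 2 and 3 and at 12.5, 17.4 and 16.9 FPKM in crush libraries 1, 2 and 3. The lowest crush value lay just above the highest sham value. The means were 10.6 ± 2.25 and 15.6 ± 2.65 FPKM (SD, n = 3 each), the ratio 1.47 and the log2 change 0.52 with an SE of 0.18 (adjusted p = 0.196). Col1a2, the other type I chain, was more abundant, at 25.0, 28.2 and 34.3 FPKM in sham and 34.2, 36.5 and 36.2 FPKM in crush. Sham library 3 reached the lowest crush library, so the groups overlapped (log2 change 0.29, adjusted p = 0.254). Per transcript length the Col1a1 level was 0.364 ± 0.0397 of the Col1a2 level in sham and 0.436 ± 0.0602 in crush, values whose ranges overlapped.

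Type III and type V collagens are built into the same fibrils as type I. Col3a1, the single chain of type III, had 12.6, 17.4 and 19.2 FPKM in sham and 18.9, 22.0 and 22.3 FPKM in crush, an overlap of 1 sham library with 1 crush library (log2 change 0.36, adjusted p = 0.286). Col5a2, a chain of type V collagen, which helps to start fibrils, had 5.96, 5.14 and 6.73 FPKM in sham and 8.08, 7.01 and 8.46 FPKM in crush. Here every crush library was above every sham library, by a log2 change of 0.35 with an SE of 0.11 (adjusted p = 0.153). Its partner Col5a1 was lower, at 1.67 to 2.35 FPKM in sham and 2.46 to 2.63 FPKM in crush (log2 change 0.27, adjusted p = 0.227). The ratio of Col5a1 to Col5a2 was 0.332 in sham and 0.328 in crush.

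Sequence before the start sites of 24 members could be matched to RefSeq promoters of GRCm38.p6, a later build than the mm9 of the deposited table. The 250 bases before each start were searched on both strands for TATAAA, the core of the TATA box, CCAAT, the CCAAT box, and GGGCGG, a box bound by Sp1-type factors. Where matches of different motifs overlap, each was counted. TATAAA was found in 2 of 24 members against 14.3% of 27025 genes, CCAAT in 8 of 24 against 37.5%, and GGGCGG in 13 of 24 against 35.4%. The windows of the fibrillar collagen genes Col1a2, at chr6:4505368-4505617 on the plus strand, and Col3a1, at chr1:45311288-45311537 on the plus strand, are shown because these are the 2 most abundant fibrillar chains among the members and differ in the motif found. Capitals mark CCAAT in the first, beginning 109 bases before the start, and TATAAA in the second, beginning 117 bases before it; GGGCGG, which the Col1a2 window also holds, is left in lower case.
Col1a2: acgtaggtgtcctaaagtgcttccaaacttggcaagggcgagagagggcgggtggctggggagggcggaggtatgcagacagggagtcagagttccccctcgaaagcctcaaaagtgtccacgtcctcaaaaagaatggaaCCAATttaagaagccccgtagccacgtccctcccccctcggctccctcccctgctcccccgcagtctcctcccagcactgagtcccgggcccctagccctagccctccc
Col3a1: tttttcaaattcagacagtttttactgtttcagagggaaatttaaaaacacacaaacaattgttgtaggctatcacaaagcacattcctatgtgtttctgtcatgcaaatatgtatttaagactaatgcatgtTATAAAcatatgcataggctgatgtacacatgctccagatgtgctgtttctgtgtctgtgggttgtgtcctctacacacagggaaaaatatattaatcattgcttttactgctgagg
The matches describe letters in these windows and say nothing of what is bound there.

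The 3 chains of collagen VI assemble together into 1 monomer, and all 3 were listed higher after crush with no overlap between groups. Col6a2 was the steadiest of them. It had 2.80, 2.85 and 2.72 FPKM in the sham libraries and 3.47, 3.80 and 3.43 FPKM in the crush libraries. The gap between the groups was larger than the spread within either, but the change was small, 0.27 on the log2 scale with an SE of 0.07, and did not pass (adjusted p = 0.1001). Col6a3, which codes for the longest chain, had 2.36, 2.27 and 2.75 FPKM in sham and 2.86, 3.11 and 3.13 FPKM in crush (log2 change 0.22, adjusted p = 0.228). Col6a1 ranged from 2.54 to 3.87 FPKM in sham and from 4.08 to 4.76 FPKM in crush (log2 change 0.29, adjusted p = 0.343). The Col6a1 to Col6a2 ratio had nearly the same mean in both groups, 1.22 ± 0.270 in sham and 1.21 ± 0.0381 in crush, with a wider spread in sham.

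Of the 4 collagens of basement membranes, Col4a1, Col4a2 and Col15a1 had every crush value above every sham value. Col4a1 and Col4a2 code for the 2 chains that make the common form of type IV collagen. Col4a2 had 8.63, 8.87 and 10.2 FPKM in sham and 10.8, 11.2 and 12.1 FPKM in crush (log2 change 0.28, SE 0.08, adjusted p = 0.145). Col4a1 had 13.3, 10.7 and 15.1 FPKM in sham and 17.7, 16.5 and 17.0 FPKM in crush (log2 change 0.38, SE 0.12, adjusted p = 0.157). The sham spread of Col4a1 was several FPKM wide, and its 3 crush values lay close together. The 2 genes lie head to head on opposite strands of chromosome 8 in mm9 (Col4a1 at chr8:11198434-11313120, Col4a2 at chr8:11312489-11449290). They share 599 exon bases in the authors' exon file, which is 8.54% of the exon bases of Col4a1, and the strand setting of the authors' quantification is not given in the sources used here.

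Col15a1 codes for a collagen of the outer face of basement membranes. It had 8.01, 9.73 and 10.2 FPKM in sham and 11.4, 12.3 and 12.5 FPKM in crush, with no overlap (log2 change 0.34, SE 0.10, adjusted p = 0.124). Col18a1, the related gene whose protein yields endostatin, behaved differently: sham library 2 was its highest, at 5.25 FPKM, and the other 2 sham libraries its lowest, at 3.41 and 3.68 FPKM. Its crush values of 4.23, 4.47 and 4.66 FPKM lay between them (log2 change 0.11, adjusted p = 0.757). Col18a1 shares 36.3% of its exon bases with Slc19a1 on the opposite strand.

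None of the 7 genes of laminins, nidogens and perlecan separated the groups, and 6 of 7 had a log2 change above 0, with a median of 0.14. Perlecan (Hspg2), the large heparan sulfate proteoglycan of basement membranes, was the most abundant. It had 18.6, 23.5 and 21.9 FPKM in sham and 23.4, 23.5 and 23.4 FPKM in crush. The crush values were almost equal and 1 sham library matched them (log2 change 0.14, SE 0.09, adjusted p = 0.505). Nid2, which like Nid1 links laminin to type IV collagen, had 4.59, 3.34 and 5.34 FPKM in sham and 5.74, 5.06 and 5.17 FPKM in crush (log2 change 0.24, adjusted p = 0.456). Lamc1, the gamma chain of most laminins, had 8.38, 6.94 and 9.90 FPKM in sham and 9.84, 9.40 and 9.48 FPKM in crush (log2 change 0.18, adjusted p = 0.496). In both, sham library 2 was the lowest, and sham library 3 was above at least 2 of the crush libraries. The remaining 4 were Lama2 (log2 change 0.13), the chain of the Schwann cell and muscle laminin, Lama4 (0.09), Lamb2 (-0.09) and Nid1 (0.26, SE 0.22), with adjusted p from 0.625 to 0.815. Nid2 shares 14.4% of its exon bases with 2700060E02Rik on the opposite strand. Lamb2 shares 41.5% with Usp19 on the same strand, so its level may hold fragments of that gene. The authors' deposited table marks the quantification of all 6 Lamb2 isoforms as failed in sham library 2 and in crush libraries 2 and 3, and that of 10 of 11 Lama2 isoforms as failed in sham library 3, with the remaining 1 marked as having too little data in every library.

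The 3 small proteoglycans, leucine-rich proteins that bind collagen fibrils and regulate their width, had, like the collagen VI chains, every crush value above every sham value in all 3 genes. Decorin (Dcn) was the most abundant, at 59.8, 85.4 and 74.4 FPKM in sham and 97.6, 97.5 and 91.7 FPKM in crush. Its mean was 73.2 ± 12.9 FPKM in sham and 95.6 ± 3.36 FPKM in crush, a log2 change of 0.40 with an SE of 0.13 (adjusted p = 0.173). Lumican (Lum) had 9.78, 12.2 and 11.2 FPKM in sham and 13.5, 14.9 and 16.4 FPKM in crush, a log2 change of 0.40 with an SE of 0.10 (adjusted p = 0.0961). The interval the authors' deposited table gives around single libraries was wider than this gap, for instance 9.09 to 15.4 FPKM for Lum in sham library 2 and 10.1 to 17.0 FPKM in crush library 1. Osteoglycin (Ogn, also called mimecan) had the largest log2 change of all members, 0.69 with an SE of 0.20, and a ratio of 1.70. Its values were 5.97, 3.70 and 6.75 FPKM in sham and 11.1, 8.89 and 7.87 FPKM in crush, so the spread was wide in both groups (adjusted p = 0.138). Dcn and Lum are neighbours on chromosome 10, 47314 bases apart (Dcn at chr10:96942010-96980798, Lum at chr10:97028113-97035337). The Lum to Dcn ratio was 0.152 ± 0.0103 in sham and 0.156 ± 0.0202 in crush. Ogn, at chr13:49703216-49720186, lies within the span of Cenpp on the opposite strand.

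The adhesive and matricellular glycoproteins were mixed, and their median log2 change was 0.02 over the 4 genes tested. Sparc codes for osteonectin, a collagen-binding protein that glia and endothelium also make. It was among the most abundant members, at 190, 215 and 227 FPKM in sham and 208, 214 and 235 FPKM in crush. The groups overlapped throughout (log2 change 0.05, SE 0.10, adjusted p = 0.833). Fibulin-2 (Fbln2) had 37.7, 34.3 and 42.8 FPKM in sham and 38.9, 38.4 and 36.4 FPKM in crush (log2 change -0.01, SE 0.09). Fibulin-5 (Fbln5), a protein of elastic fibres, had 39.1, 36.8 and 46.3 FPKM in sham and 38.5, 36.3 and 37.4 FPKM in crush (log2 change -0.11, SE 0.09). Neither fibulin separated the groups (adjusted p = 0.976 and 0.612). The 1 gene of this role that did was Mgp, matrix Gla protein, an inhibitor of calcification. Mgp had 4.78, 9.31 and 8.02 FPKM in sham and 11.5, 11.2 and 10.9 FPKM in crush, with sham library 1 far below the other 2 (log2 change 0.58, SE 0.20, adjusted p = 0.200).

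Fibronectin (Fn1), the adhesive protein of provisional matrix, was listed at 0.0913, 0.0144 and 0.220 FPKM in sham and 0.278, 0.521 and 0.205 FPKM in crush, and was not tested. Only 3 of its 13 transcripts in the authors' exon file have values in the table used here, so this sum covers part of the gene and is not its full level. Sums of other members may be partial too. Values were given for 2 of 6 transcripts of Col6a2, 4 of 11 of Col18a1, 11 of 21 of Lama2 and 4 of 7 of Apod, for instance. In some members, such as Sparc (6 of 6), every transcript had values. Fibulin-1 (Fbln1) was just under the minimum, at 0.627, 0.915 and 0.988 FPKM in sham and 0.880, 1.18 and 0.927 FPKM in crush, with overlapping groups.

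The remodelling enzyme and the inhibitors were listed in different directions, and none passed. Mmp2, gelatinase A, which degrades denatured and type IV collagen, had 2.51, 4.51 and 3.17 FPKM in sham and 4.43, 5.49 and 5.67 FPKM in crush. The highest sham library, number 2, passed the lowest crush library by a small margin (log2 change 0.51, SE 0.17, adjusted p = 0.187). Timp2, an inhibitor of metalloproteinases that also takes part in activating the Mmp2 protein, was much more abundant, at 308, 311 and 319 FPKM in sham and 278, 279 and 275 FPKM in crush. All 3 crush values lay below all 3 sham values by a small log2 difference of -0.17 with an SE of 0.07 (adjusted p = 0.256). The authors' deposited table marks the quantification of Timp2 as failed in crush library 3. The Mmp2 to Timp2 ratio was 0.0109 ± 0.00328 in sham and 0.0188 ± 0.00246 in crush, and its highest sham value of 0.0145 was below its lowest crush value of 0.0160. Timp3, the inhibitor that binds to matrix, had 36.8, 30.0 and 40.3 FPKM in sham and 39.2, 43.3 and 41.7 FPKM in crush (log2 change 0.22, adjusted p = 0.391). It lies within the span of Syn3 on the opposite strand.

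Pdgfra, the platelet-derived growth factor receptor that defines many fibroblasts, was barely above the minimum. It had 0.793, 0.828 and 0.964 FPKM in sham and 1.12, 1.29 and 1.09 FPKM in crush, with no overlap (log2 change 0.22, SE 0.08, adjusted p = 0.232). Apod codes for apolipoprotein D, a lipid carrier made by nerve fibroblasts and by Schwann cells, and was the most abundant member. It had 208, 396 and 307 FPKM in sham and 418, 405 and 429 FPKM in crush, all crush values above all sham values. Its mean was 304 ± 93.9 FPKM in sham and 417 ± 12.4 FPKM in crush, and the wide sham spread gave an SE of 0.22 on a log2 change of 0.51 (adjusted p = 0.294).

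The levels were also added up by role in each library. Fibrillar collagens summed to 53.3 to 75.0 FPKM in sham and 76.2 to 86.5 FPKM in crush, a ratio of means of 1.29. Collagen VI summed to 7.70 to 9.25 and 10.4 to 11.7 FPKM (1.26), basement membrane collagens to 33.3 to 39.2 and 44.2 to 46.2 FPKM (1.26), and small proteoglycans to 75.5 to 101 and 116 to 122 FPKM (1.34). These 4 sums did not overlap between groups. The sum of Pdgfra and Apod, nearly all of it Apod, did not overlap either, at 209 to 397 FPKM in sham and 406 to 431 FPKM in crush (1.37). The sum of Mmp2 and the Timp genes, nearly all of it Timp2 and Timp3, did not overlap in the opposite direction, at 346 to 363 FPKM in sham and 322 to 328 FPKM in crush (0.920). The other sums overlapped: laminins, nidogens and perlecan had 59.5 to 69.7 FPKM in sham and 68.9 to 70.7 FPKM in crush (1.09), and the glycoproteins had 273 to 325 and 297 to 320 FPKM (1.03). All members together made up 0.330%, 0.359% and 0.399% of the summed FPKM in sham libraries 1, 2 and 3 and 0.423%, 0.432% and 0.415% in the crush libraries.

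**Figure D3:**
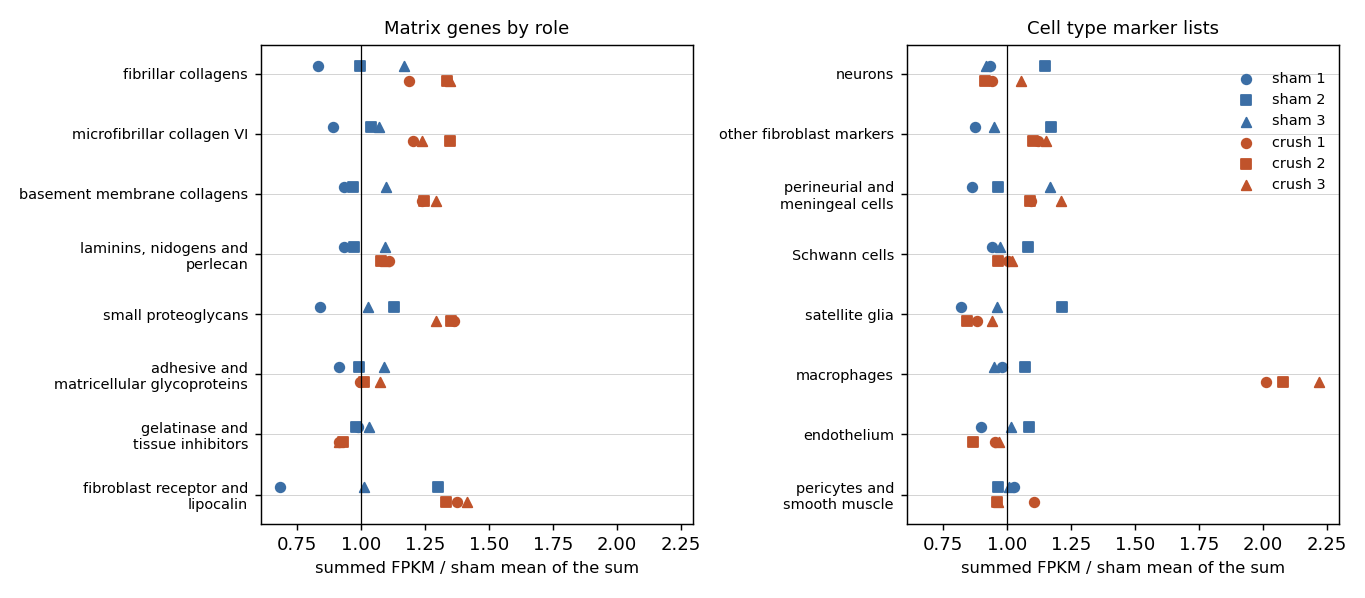
Summed FPKM of each role group (left) and of each cell type marker list (right) in every library, divided by the mean sham sum of that list, with sham in blue and crush in orange. The macrophage list, at a ratio of 2.10, lies farthest from 1, and the crush sums of the collagens and small proteoglycans lie above their sham sums.

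Markers of neurons and of the cells around them were present in both groups. Markers of neurons summed to 8048 to 10059 FPKM in sham and 8010.4 to 9243 FPKM in crush, and of 14 tested the neurofilament genes Nefh (543 against 347 FPKM) and Nefm (1345 against 923 FPKM) fell. In a bulk sample, fewer cells of a type and less RNA per cell cannot be told apart. Of 20 other fibroblast markers, 16 had values and 8 were tested, none passed, and the sums were 152 to 204 FPKM in sham and 192 to 200 FPKM in crush. In that list Gsn, an actin-severing protein found in many cell types, was the most abundant, at 64.7 FPKM in sham and 75.3 FPKM in crush on average. Of the 8 tested, 5 had a log2 change above 0, with a median of 0.20. In 2 of them, Ly6a (log2 change 0.62, adjusted p = 0.0961) and Mfap5 (0.42, adjusted p = 0.132), every crush value lay above every sham value. In Cd34, also a marker of vessels, every crush value lay below, and it had the smallest adjusted p of the list (-0.42, adjusted p = 0.0549). The other 8 markers with values were under the mean of 1 FPKM, and none of the 16 was at 0 in every library.

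Of 15 macrophage markers tested, 14 rose, among them C1qc (9.23 FPKM in sham, 20.6 FPKM in crush on average) and Ctss (6.82 and 17.6 FPKM). The macrophage sum was between 82.3 and 92.9 FPKM in sham and between 175 and 193 FPKM in crush. Of 9 perineurial and meningeal markers tested, Krt19 (log2 change 0.75, adjusted p = 0.0242) and Slc2a1 (0.48, adjusted p = 0.0480) rose, with sums of 57.1 to 77.4 FPKM in sham and 72.3 to 80.3 FPKM in crush. No marker of Schwann cells (16 tested), endothelium (12 tested) or pericytes and smooth muscle (7 tested) passed, and 1 of 10 satellite glia markers, Aldh1l1, rose (4.33 and 8.77 FPKM). Their sums overlapped between groups: 1452 to 1669.9 and 1489.8 to 1574 FPKM for Schwann cells, 60.1 to 72.6 and 58.1 to 64.8 FPKM for endothelium, 39.8 to 42.4 and 39.7 to 45.7 FPKM for pericytes, and 1904 to 2816 and 1955 to 2181 FPKM for satellite glia. The part of any of these cells in the values of the matrix genes was not tested.

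The spread among sham libraries was larger than among crush libraries in most members, and 2 sham libraries account for most low values. On the log2 scale the sham SD was above the crush SD in 28 of 31 members, and in 75.0% of all genes. Sham library 1 was the lowest of its group in 19 members and sham library 2 in 11, while sham library 3 was the highest in 21. Sham library 2 correlated with the other sham libraries at 0.978 and 0.981 over all genes tested, and the other 2 with each other at 0.997 (a description across genes, which are not replicates).

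Values of sham library 2 also followed transcript length. Over all genes tested its log2 level minus the mean of sham libraries 1 and 3 had a median of 0.36 in genes whose transcripts average up to 1500 bases, 0.09 from 1500 to 3000 bases, -0.09 from 3000 to 5000 bases and -0.24 above 5000 bases. Crush library 3 differed from crush libraries 1 and 2 in the same direction by less, with medians of 0.16 and -0.09 in the shortest and the longest class. Among the members, the short Apod (0.64), Mgp (0.51) and Dcn (0.35) were high in sham library 2, and the long Nid1 (-0.77) and Nid2 (-0.46) were low in it. Members did not all follow their length: Fbln5 was low in it (-0.21) at 2379 bases, and Col18a1 was high (0.46) at 8160 bases. Ogn, at 3081 bases, lay further below 0 (-0.64) than the median of its length class (-0.09).

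**Figure D4:**
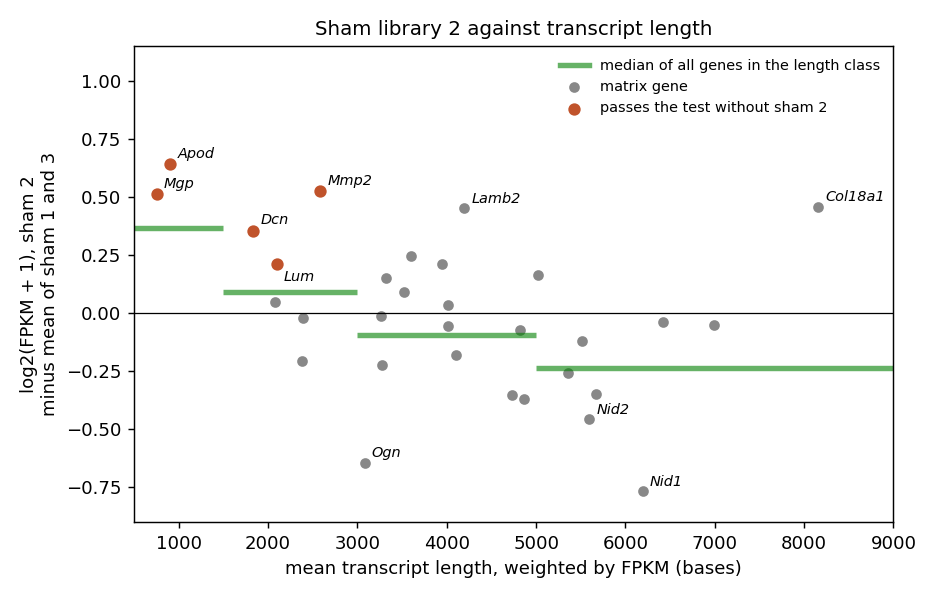
Level of each matrix gene in sham library 2 minus the mean of sham libraries 1 and 3, in log2(FPKM + 1), against the mean length of its transcripts weighted by FPKM; green bars are the medians of all genes in 4 length classes. The 5 genes in orange, which pass the test when sham library 2 is left out, have transcripts of 2582 bases or less and lie above 0. Leaving out a high sham library raises a positive change, so their place above 0 follows in part from how they were picked. Sparc (2080 bases), Fbln5 (2379 bases) and Lama2 (2393 bases) are also that short and do not pass.

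The calls in this group changed with sham library 2, and the sizes of change with single libraries of both groups. Without sham library 2, 5 members passed with higher crush values, against 4.94% of all genes: Mmp2 (log2 change 0.69, adjusted p = 0.0162), Dcn (0.51, 0.0200), Lum (0.47, 0.0248), Apod (0.72, 0.0304) and Mgp (0.75, 0.0365). In all 5 this library was the highest of the sham libraries, so leaving it out raised their log2 change. Weighting each library by its estimated quality, which gave sham library 2 the weight 0.162, called 9 members as higher, against 5.97% of all genes: the same 5 with Col15a1, Ogn, Col6a2 and Col4a1. Leaving out any other single library called 0 members, where 53 to 119 of all 12289 genes passed. That share of all genes is so small that the 0 says little about the members. Without sham library 1, the lowest sham library of these genes, the log2 change was 0.26 in Apod, 0.34 in Mgp and 0.26 in Dcn, and it was 0.19 in Col1a2 and in Col3a1 and 0.14 in Col6a1. Each of these is under the value over all libraries by more than 1.5 times. Without sham library 2 the change was also smaller in genes in which that library was low: 0.0021 in Nid1, 0.085 in Nid2, 0.064 in Lamc1 and 0.10 in Timp3. Leaving out a crush library moved some sizes too. In Lama2 the log2 change was 0.13 over all libraries, 0.018 without crush library 3 and 0.26 without crush library 2. No laminin, nidogen, fibrillar collagen or Timp gene was called under any of these settings.

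The authors' own test, in the authors' deposited table, compared the groups for single isoforms. Of 139 isoforms of the members it gave a usable test for 50, and a failed one for 76. It marked 14 isoforms as significant, all higher after crush in the authors' group values, where 8.26% of all isoforms with a usable test were significant and higher. These 14 belong to 11 genes: Col1a1, Col6a1, Col15a1, Col18a1, Lama2, Nid2, Hspg2, Lum, Ogn, Mgp and Mmp2. Their log2 changes in the authors' deposited table run from 0.44 (Col18a1) to 1.07 (a 2019-base isoform of Mmp2), with 0.85 for Mgp and 0.51 for Lum. The marked Hspg2 isoform, of 10058 bases, had 0.314 FPKM in sham and 0.554 FPKM in crush in the authors' group values. Its means over the single libraries ran the other way, at 0.0813 FPKM in sham and 0.0592 FPKM in crush. Another 18 members had no isoform with a usable test there, so the absence of a call in the authors' deposited table is no result for them.

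Tested isoform by isoform with limma, 75 isoforms of 29 members reached the mean of 1 FPKM, and 0 passed, where 0.0613% of 24485 isoforms did. Of them 15 had an unadjusted p under 0.05 with a higher crush value, against 4.55% of all isoforms, and 1 with a lower one; the smallest adjusted p was 0.237. Whether isoforms of 1 gene changed unequally was tested with limma's diffSplice in 23 members. None passed (0.445% of 6746 genes did), and Sparc and Fbln2 had an unadjusted p under 0.05. The share of all genes under that unadjusted p is not given here, so these members cannot be set against it.

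Matrix genes outside the group give its context, and a few of them passed. Of 14 other collagens tested, Col5a3, another type V chain, known from Schwann cells, rose, with 43.7 ± 2.24 FPKM in sham libraries and 83.1 ± 3.86 FPKM in crush libraries (log2 change 0.91, adjusted p = 0.00509); the median of the list was 0.05. Of 10 other laminins and basement membrane proteins, Lama5 rose from 1.91 ± 0.0410 to 3.45 ± 0.115 FPKM (0.61, adjusted p = 0.00888), and the median was 0.22. Of 21 collagen-making and cross-linking enzymes, Loxl2, a lysyl oxidase that cross-links collagen, rose from 1.75 ± 0.0244 to 5.80 ± 0.595 FPKM (change 1.303, adjusted p = 0.00450), and the median was -0.02.

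Receptors that bind matrix rose in 2 of 17 cases. Itga7, a laminin-binding integrin chain, rose by 0.82 on the log2 scale, with 86.7 ± 6.14 FPKM in sham libraries and 154 ± 13.4 FPKM in crush libraries (adjusted p = 0.00944). Ddr2, a receptor for fibrillar collagen, rose by 0.59 (1.52 ± 0.225 against 2.78 ± 0.301 FPKM, adjusted p = 0.0315). Of 25 other matrix glycoproteins, Nov rose (0.68, adjusted p = 0.00817) and Ltbp3, which binds latent TGF-beta, fell (-0.40, adjusted p = 0.0309). Of 16 other metalloproteinases and inhibitors, Adamts1 rose (0.69, adjusted p = 0.0426). None of 9 genes of the TGF-beta pathway, a main inducer of matrix genes, passed, the smallest adjusted p being 0.153 for Tgfbr2 (0.28). The 2 other leucine-rich proteoglycans tested did not pass either; for biglycan (Bgn) the difference was 0.35 (adjusted p = 0.181), with 10.4 ± 1.54 FPKM in sham libraries and 13.4 ± 1.099 FPKM in crush libraries.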

How the data were processed

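RNA of laser-microdissected ganglion neurons was sequenced from 3 sham and 3 crush libraries, with 500 ng of RNA and 3 lanes given in the labels' protocols. Per the submitters' processing notes, TopHat 1.3.2, Cufflinks 1.1.0 and Cuffdiff 1.2.1 were used with mm9. The authors deposited FPKM per isoform and library, intervals around it, and their own test with log2 changes, p-values and q-values. The authors deposited no read totals in the files used here, so the depth of the libraries is not known here. The only intervals given are the authors' own, and no other interval for counting error was set.

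FPKM was summed per gene name. Genes with a mean of at least 1 FPKM were fitted with limma 3.58.1 in R 4.3.3 on log2(FPKM + 1), with a trended prior and no covariates, Benjamini-Hochberg adjustment over all genes and a threshold of 0.05. Isoforms were fitted likewise, with diffSplice for unequal change within a gene. The scripts were tested on simulated data. Genes that could be named are all 34 members, with full values for the 10 most abundant and the 2 of smallest adjusted p in each role; from each other list, called genes (at most 2 in each direction) or the one of smallest adjusted p, and the most abundant. The members, lists and rules were chosen with earlier results of these data known; the transcript length classes, the Ly6a and Mfap5 values and the isoforms under other observations were chosen after the values were seen. Transcript length is the mean over a gene's isoforms weighted by FPKM. Alternatives were a pseudocount of 0.1, other filters and scalings, reference isoforms only, array weights, a replicate block and leaving out each library.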

Additional observations from a re-analysis of the deposited data

How the results depend on the processing

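Over all genes tested, 464 passed. The count was 295 with a filter at a mean of 5 FPKM, which tests fewer genes, 67 with reference isoforms only, which also tests fewer, and 1429 with array weights, and it ran from 53 to 1174 when each library was left out in turn (lowest without crush library 1, highest without sham library 2). With the replicate number as a block it was 50, with 0 members. Same-numbered libraries deviated together in 1 of 3 pairs only (correlations 0.37, -0.31 and -0.49). Sham library 2 and crush library 3, which followed transcript length in the same direction, had a correlation of 0.59. Such correlations across genes cannot show whether the numbers pair the libraries. Members called were 9 with array weights, whose fit stopped before it converged, and 0 to 5 when each library was left out. Member isoforms called were 7 with array weights and 0 in the other settings. Members with unequally changing isoforms were 1 with array weights (Fbln2) and 0 to 1 when each library was left out (Sparc, without sham library 3). The shares of all isoforms and of all genes called in these 2 ways under the same settings are not given here. These counts of members can therefore not be set against them. The log2 change turned in Col1a2 (-0.25) and Fbln5 (0.029) with reference isoforms only, in Lamb2 with array weights (0.048) and between -0.23 and 0.062 over left-out libraries, in Sparc between -0.019 and 0.11 over left-out libraries, and in Fbln2 with upper-quartile scaling (0.034) and quantile normalization (0.033) and between -0.083 and 0.072 over left-out libraries; the cause was not tested. The other members kept their direction in every setting that gave them a value. With reference isoforms only, the Col1a2 value came from its 5156-base isoform alone. That isoform held 3.82% of the summed Col1a2 level in sham and 2.55% in crush.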

Other observations

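Some isoforms of the matrix genes were listed in a few libraries only, and they were picked after their values were seen. The shorter of 2 Nid1 isoforms, of 5944 bases, was listed at 3.28 FPKM in sham library 2 and 2.28 FPKM in crush library 3 and at 0.172 FPKM or less in the other 4. The other Nid1 isoform, of 6224 bases, stood at 1.75 and 5.90 FPKM in those 2 libraries and between 8.14 and 10.3 FPKM in the other 4. Timp2 showed a like split. Its 2349-base isoform was at 3.23 FPKM in sham library 2 and 0.326 FPKM in crush library 3 against 26.4 to 45.3 FPKM elsewhere, and its 2622-base isoform was at 39.1 and 21.6 FPKM there against 0 to 7.73 FPKM elsewhere. The summed Timp2 level of these 2 libraries, 311 and 275 FPKM, stayed close to that of their groups. The authors' deposited table marks the quantification of all 6 Timp2 isoforms as failed in crush library 3. In Sparc, an isoform of 1897 bases was listed at 23.7 and 13.3 FPKM in sham libraries 1 and 2 and at 0 in the other 4 libraries.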
